A study of Mus musculus with 12 samples.

Results

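Nr4a1, Nr4a3, Egr1, Egr2, Egr3 and Myc are transcription factor genes that T cells switch on soon after their antigen receptor is engaged. They were found as the probe sets whose single gene symbol in the array's annotation was one of these names. This gave 8 of the 22690 probe sets and 6 of the 12393 genes with a symbol of their own. Of the 8 probe sets, 7 passed a filter on low values, and all 6 genes kept at least 1 of them.

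The arrays held RNA of 5CC7 T cells, which carry a transgenic receptor of a single specificity. They had been transferred into B10.A mice, and a peptide was then given by vein. The groups were 2 µg of MCC, 0.2 µg of MCC, 2 µg of 102S and 0.2 µg of 102S, with 3 arrays each. MCC is the strong agonist of this receptor and 102S the weak one, by the study's design text. Every group received an agonist, and no unstimulated cells were analysed here. Cells were sorted from pooled lymph nodes 48 h after the injection. The labels do not say that replicates came from separate animals, so p-values reflect the spread among these arrays alone, which may in part be technical.

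Immediate early genes are transcribed without new protein synthesis when calcium and the kinase ERK carry the receptor signal to factors already present in the nucleus. NR4A proteins are orphan nuclear receptors, EGR proteins are zinc finger factors, and Myc drives growth and ribosome production before division. In T cells Nr4a1 is widely used as a reporter of recent receptor signal, and Egr2, Egr3 and the NR4A receptors are also studied in anergy and exhaustion.

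The promoters of Nr4a1, Nr4a3 and Egr2 are shown. The reference promoters held no entry for Egr3 and Myc, and Egr1 was left out. The choice is therefore no contrast of genes that passed a test with genes that did not. Each line gives the 250 bases before a gene's start in RefSeq, build GRCm38.p6, 5′ to 3′. For Egr2, which has 5 listed starts, the start with most others within 100 bases was taken. Capitals mark the core of the cyclic AMP response element (TGACG, on either strand) and the CArG box bound by serum response factor.
Nr4a1, chr15:101266596-101266845, + strand: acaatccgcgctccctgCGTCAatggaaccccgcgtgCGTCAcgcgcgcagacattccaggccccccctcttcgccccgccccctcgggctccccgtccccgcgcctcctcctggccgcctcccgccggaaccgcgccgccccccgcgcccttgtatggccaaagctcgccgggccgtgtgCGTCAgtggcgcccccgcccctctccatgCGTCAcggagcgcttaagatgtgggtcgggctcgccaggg
Nr4a3, chr4:48045055-48045304, + strand: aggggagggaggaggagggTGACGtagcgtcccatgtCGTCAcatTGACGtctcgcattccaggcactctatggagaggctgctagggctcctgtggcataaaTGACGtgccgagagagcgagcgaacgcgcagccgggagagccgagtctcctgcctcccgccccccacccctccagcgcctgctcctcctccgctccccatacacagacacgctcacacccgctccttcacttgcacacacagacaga
Egr2, chr10:67537619-67537868, + strand: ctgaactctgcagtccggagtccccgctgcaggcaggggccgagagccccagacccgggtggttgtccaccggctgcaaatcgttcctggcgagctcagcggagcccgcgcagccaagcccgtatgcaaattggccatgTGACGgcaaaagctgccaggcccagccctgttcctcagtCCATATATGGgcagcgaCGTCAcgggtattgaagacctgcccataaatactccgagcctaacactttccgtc
The TGACG core was found 4 times upstream of Nr4a1, 4 times upstream of Nr4a3 and 2 times upstream of Egr2. Of 32851 promoter windows of the same length, 17.8% hold it. The CArG box was found 1 time, upstream of Egr2, and 1.47% of the windows hold it. On both strands, the EGR element GCGTGGGCG, the NR4A element AAAGGTCA and the E-box CACGTG bound by Myc and Max were not among the letters of these 3 windows, against 0.536%, 1.34% and 6.02% of all windows. These matches are a description of the letters and show no binding.

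Values are log2 expression as deposited, and a difference of 1 is 2-fold. Differences are given ± the standard error of a limma fit over all 12 arrays, and "passed the test" means a Benjamini-Hochberg adjusted p under 0.05 over 13556 probe sets. Arrays within groups differed in sex-linked transcripts and in RNA controls. Xist, the RNA of the inactive X chromosome, lay between 11.7 and 12.3 on the 4 replicate 1 arrays and between 4.05 and 5.10 on the 8 others. Eif2s3y, which is Y-linked, lay between 3.31 and 4.26 on those 4 arrays and between 8.75 and 9.37 on the others. In each group, replicate 1 thus came from another source of cells than replicates 2 and 3, and the spread within groups holds that difference. The β-actin control probe sets, 3′ minus 5′, averaged 0.63 ± 0.12 log2 in the MCC 2 µg group, 1.62 ± 0.81 in the MCC 0.2 µg group, 1.24 ± 0.41 in the 102S 2 µg group and 1.33 ± 0.88 in the 102S 0.2 µg group (SD, n = 3). It was highest on replicate 3 and lowest on replicate 1 in 4 of 4 groups. Every MCC 2 µg array (0.50 to 0.72) lay below every array of the other groups (0.74 to 2.35). With the β-actin difference as a covariate, comparisons with the MCC 2 µg group therefore rest on extrapolation. Markers of T cells averaged between 10.46 and 10.83 log2 on every array, while Cd4 among them lay between 6.80 and 7.75. Of 9 myeloid markers, 6 lay below the filter, Cd14, Itgam and Itgax among them. The others, Lyz2 (4.15 to 5.89), Csf1r (4.85 to 5.72) and Fcer1g (5.08 to 5.91), passed it.

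At 48 h, Nr4a1 and Egr2 were higher after MCC than after 102S, Nr4a1 at 0.2 µg and Egr2 at both doses. Egr1, Egr3, Nr4a3 and Myc did not pass the test in any of the 7 comparisons. Neither Nr4a1 nor Egr2 passed the test between the doses of a peptide. At 2 µg, 1 of 6 genes passed the test for MCC against 102S, where 10.3% of all tested probe sets did (4.04% higher and 6.23% lower). At 0.2 µg, 2 of 6 passed, where 14.3% of all tested probe sets did (7.85% higher and 6.45% lower). The median difference of the 6 genes was 0.10 at 2 µg and 0.12 at 0.2 µg, beside −0.04 and −0.04 over all tested probe sets.

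**Figure D1:**
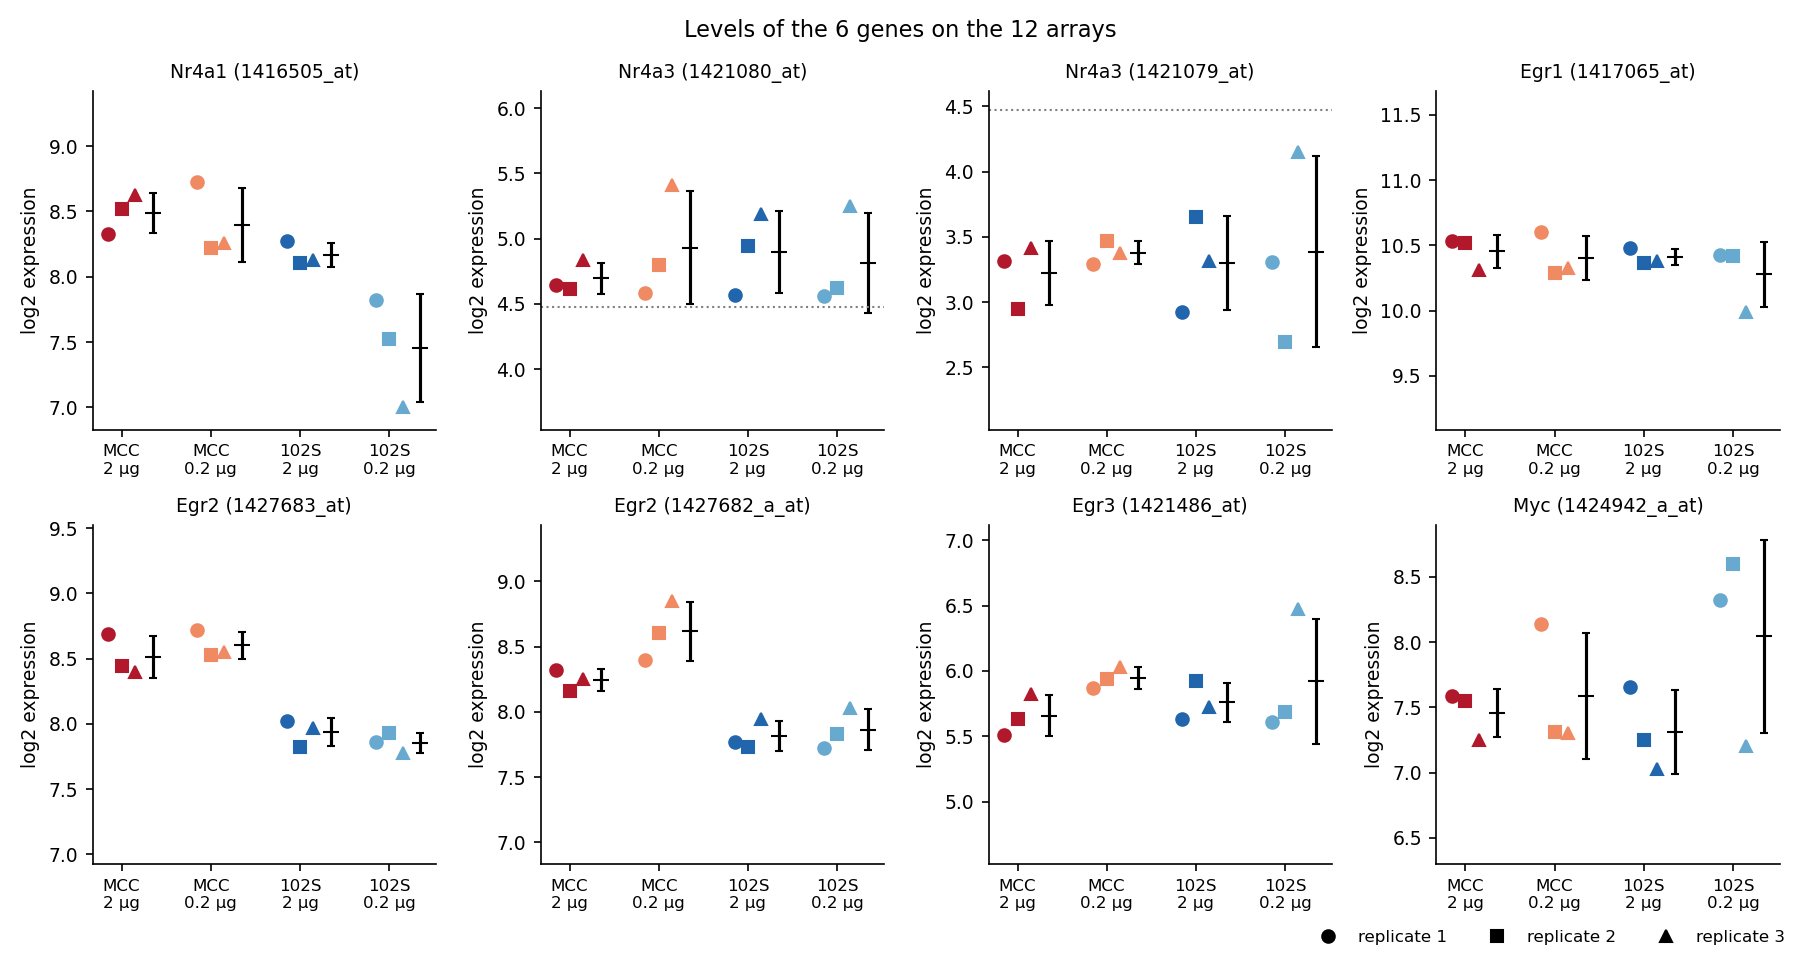
Log2 expression of the 8 probe sets (vertical axes, each of its own range) on the 12 arrays in the 4 groups (horizontal axes). Symbols are single arrays, shaped by replicate number, and bars are group means ± SD over 3 arrays. The dotted line is the filter at log2 4.48. All 6 Egr2 values of MCC arrays on 1427683_at (8.40 to 8.72) lie above all 6 of 102S arrays (7.78 to 8.03).

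Nr4a1 (probe set 1416505_at), the orphan nuclear receptor used as a reporter of receptor signal, had 8.33, 8.52 and 8.63 at 2 µg of MCC and 8.73, 8.22 and 8.26 at 0.2 µg of MCC. It had 8.27, 8.10 and 8.13 at 2 µg of 102S and 7.82, 7.52 and 7.005 at 0.2 µg of 102S. The 3 arrays of 0.2 µg of 102S were lower than the other 9. At 0.2 µg the groups did not overlap, and Nr4a1 was 1.93-fold higher with MCC (0.95 ± 0.20, 95% interval 0.52 to 1.38, adjusted p = 0.00739). With only the 6 arrays of this dose fitted, the adjusted p was 0.0623. At 2 µg the groups did not overlap either, but the difference of 0.32 ± 0.20 (interval −0.11 to 0.76, adjusted p = 0.370) did not pass the test. Taken within replicate numbers 1, 2 and 3, the differences were 0.90, 0.69 and 1.25 at 0.2 µg and 0.05, 0.42 and 0.50 at 2 µg. The difference between doses of the peptide effect itself was −0.63 (interval −1.24 to −0.01), with an unadjusted p of 0.0462 and an adjusted p of 0.560, so an unequal effect at the 2 doses was not established. With the β-actin difference described above as a covariate, it was −0.94 (adjusted p = 0.0103), a value that extrapolates for the MCC 2 µg group.

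Between doses, Nr4a1 was 0.72 ± 0.20 higher with 2 µg than with 0.2 µg of 102S (interval 0.28 to 1.15, adjusted p = 0.0873), which did not pass the test although the groups did not overlap. Without 102S 0.2 µg replicate 1, the difference was 0.90, with an adjusted p of 0.0385, and with the replicate number as a block it was 0.72, with an adjusted p of 0.0288. Over the 12 limma fits that each left out 1 array, the difference lay between 0.49 and 0.90. The adjusted p lay between 0.0385 and 0.235, and 11 of these fits did not pass. With MCC the doses differed by 0.09 (interval −0.34 to 0.52). In group order, 2 µg of MCC, 0.2 µg of MCC and 2 µg of 102S had means of 8.49, 8.40 and 8.17, and the 2 steps between these neighbours did not pass the test. The average log2 level of 6 markers of CD8 T and NK cells, which the sort could retain, lay between 4.95 and 5.11 in the MCC 2 µg group, 5.30 and 5.88 in the MCC 0.2 µg group, 5.80 and 5.83 in the 102S 2 µg group, and 6.26 and 6.44 in the 102S 0.2 µg group. Of the 6, 5 passed the filter, with Cd8b1 between 7.03 and 8.31 and Klrd1 between 4.20 and 8.84 over the 12 arrays, and the NK marker Ncr1 lay below it. Of these 5, 2 were lower and 0 higher with MCC at 2 µg, and 2 lower and 0 higher at 0.2 µg. Of all tested probe sets, 6.23% were lower at 2 µg and 6.45% at 0.2 µg. The part of these markers in the Nr4a1 result was not tested. In bulk samples such as these, fewer cells of a type and less RNA per cell cannot be told apart.

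Nr4a3, a close relative of Nr4a1, lay near the filter. On 1421080_at it had 4.65, 4.62 and 4.83 at 2 µg of MCC and 4.58, 4.80 and 5.42 at 0.2 µg of MCC, and it had 4.57, 4.94 and 5.19 at 2 µg of 102S and 4.56, 4.62 and 5.25 at 0.2 µg of 102S. The groups overlapped at both doses. The differences were −0.20 (interval −0.75 to 0.35) at 2 µg and 0.12 (interval −0.43 to 0.67) at 0.2 µg, and neither passed the test. The other probe set, 1421079_at, averaged 3.32 and was not tested.

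Egr2 (1427683_at), a zinc finger factor linked to anergy and tolerance in T cells, had 8.69, 8.44 and 8.40 at 2 µg of MCC and 8.72, 8.53 and 8.55 at 0.2 µg of MCC. It had 8.03, 7.82 and 7.97 at 2 µg of 102S and 7.86, 7.93 and 7.78 at 0.2 µg of 102S. All 6 MCC arrays were higher than all 6 102S arrays. Egr2 was 1.49-fold higher with MCC at 2 µg (0.57 ± 0.12, adjusted p = 0.00981) and 1.68-fold higher at 0.2 µg (0.75 ± 0.12, adjusted p = 0.00125). With replicates 2 and 3 only, the 2 µg difference was 0.53 and did not pass (adjusted p = 0.0983). It was also higher with 0.2 µg of MCC than with the larger dose of 102S, by 0.66 ± 0.12 (adjusted p = 0.0132), a comparison in which 2.48% of all probe sets and 1 of the 6 genes passed. That call was lost in 4 settings in which the difference lay between 0.60 and 0.70: without MCC 0.2 µg replicate 2 (0.70, adjusted p = 0.0510), without 102S 2 µg replicate 2 (0.60, 0.0663), with the compared arrays only (0.66, 0.0528) and with replicates 2 and 3 only (0.65, 0.101).

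Between 2 µg and 0.2 µg, Egr2 did not pass the test, with a difference of −0.09 (interval −0.35 to 0.17) with MCC and 0.08 (interval −0.18 to 0.34) with 102S. Within replicate numbers 1, 2 and 3 the MCC minus 102S differences were 0.67, 0.62 and 0.43 at 2 µg and 0.86, 0.60 and 0.78 at 0.2 µg. On the second probe set, 1427682_a_at, MCC arrays lay between 8.16 and 8.85 and 102S arrays between 7.72 and 8.03, again without overlap. Its difference was 0.76 at 0.2 µg (adjusted p = 0.00309) and 0.43 ± 0.14 at 2 µg, where it did not pass the test (adjusted p = 0.0705). Between doses of MCC this probe set differed by −0.37 for 2 µg minus 0.2 µg (interval −0.68 to −0.07, unadjusted p = 0.0189, adjusted p = 0.195), without overlap of the groups, and this did not pass the test. For 2 µg against 0.2 µg of 102S it differed by −0.05 (interval −0.35 to 0.25). The average of 6 B cell markers was 6.10 to 6.33 with 2 µg of MCC and 5.74 to 5.82 with 2 µg of 102S, and 6.06 to 6.08 with 0.2 µg of MCC and 5.66 to 6.24 with 0.2 µg of 102S. Of the 6, 4 passed the filter (Ighm between 10.41 and 11.53 over the 12 arrays, Cd74 between 5.54 and 7.31, Cd22 between 4.54 and 6.38 and Cd79b between 3.95 and 5.96), and Cd79a and Ms4a1 lay below it. With MCC, 1 of these 4 was higher and 0 lower at 2 µg, and 2 were higher and 1 lower at 0.2 µg. Of all tested probe sets, 10.3% passed at 2 µg and 14.3% at 0.2 µg. The part of the B cell markers in the Egr2 result was not tested.

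**Figure D2:**
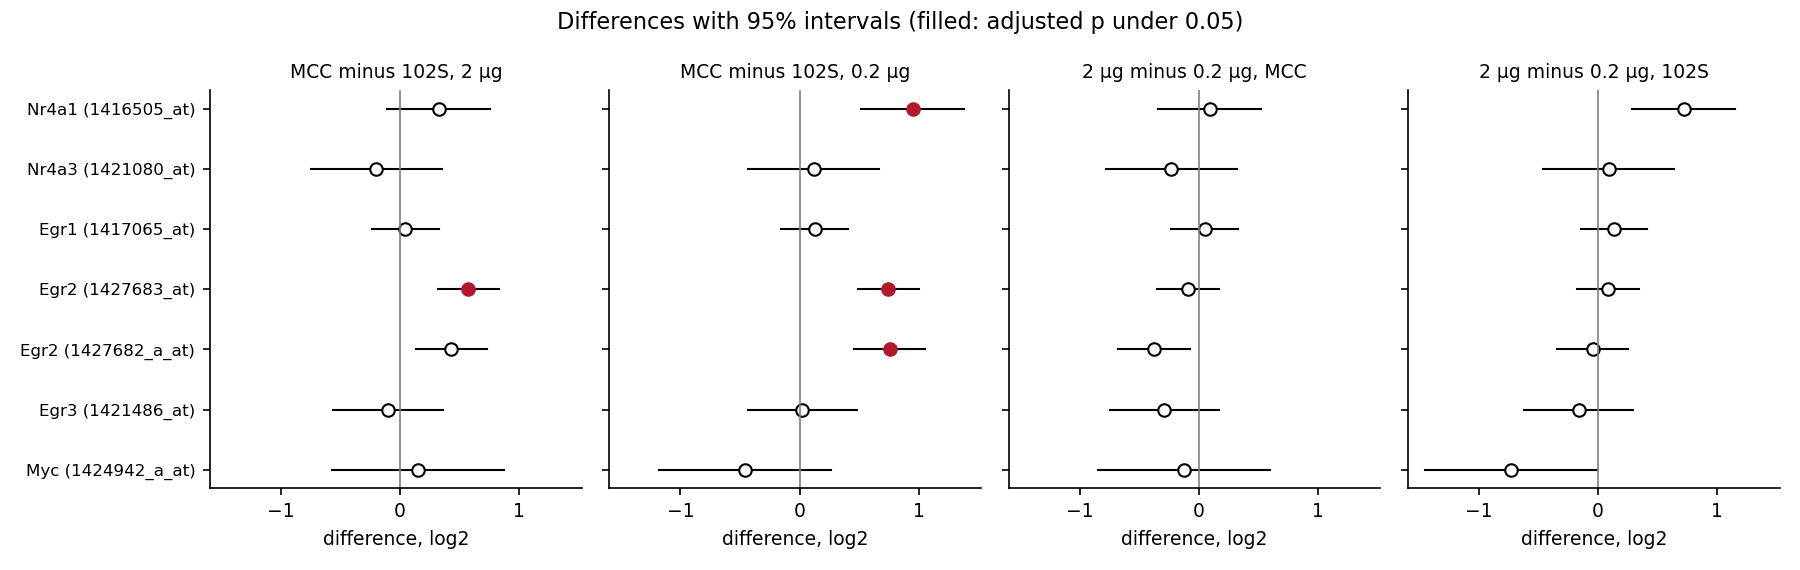
Log2 differences (horizontal axes) of the 7 tested probe sets (rows) in 4 comparisons, with 95% intervals of the limma fit. Filled points passed the test. The intervals of Egr2 on 1427683_at lie above 0 for MCC minus 102S at both doses, and those of Egr1 span 0 in all 4 panels.

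Egr1, the EGR factor most often used as an early response gene, had 10.53, 10.52 and 10.31 at 2 µg of MCC and 10.60, 10.29 and 10.32 at 0.2 µg of MCC. It had 10.48, 10.37 and 10.38 at 2 µg of 102S and 10.42, 10.42 and 9.99 at 0.2 µg of 102S. The groups overlapped at both doses. The difference was 0.04 (interval −0.24 to 0.32) at 2 µg and 0.13 (interval −0.15 to 0.41) at 0.2 µg, and neither passed the test.

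Egr3, which shares functions with Egr2 in T cells, had 5.51, 5.64 and 5.83 at 2 µg of MCC and 5.87, 5.94 and 6.03 at 0.2 µg of MCC. It had 5.63, 5.93 and 5.72 at 2 µg of 102S and 5.61, 5.69 and 6.47 at 0.2 µg of 102S. The peptides overlapped at both doses, with differences of −0.10 (interval −0.56 to 0.36) at 2 µg and 0.02 (interval −0.43 to 0.48) at 0.2 µg.

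Whether family members changed unequally with the peptide was tested on the log ratio of each pair within a family, by an exact 2-sided permutation of the peptide labels within each dose (12 arrays, 400 arrangements, 4 tests). The pairs were defined after the levels had been seen, when Egr2 was known not to overlap between the peptides. The pairs with Egr2 thus restate that difference and are no independent support. Replicate numbers were not held together in the permutation. Egr2 exceeded Egr1 in its MCC minus 102S difference by 0.57, and Egr2 exceeded Egr3 by 0.70 (exact p = 0.005 for each, the smallest the arrangements can give, adjusted p = 0.01). Egr1 and Egr3 differed by 0.12 (exact p = 0.69). Nr4a1 exceeded Nr4a3 by 0.68, with an exact p of 0.04 and an adjusted p of 0.0533, which did not pass.

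Myc had 7.58, 7.55 and 7.25 at 2 µg of MCC and 8.14, 7.31 and 7.30 at 0.2 µg of MCC. It had 7.66, 7.25 and 7.03 at 2 µg of 102S and 8.33, 8.60 and 7.21 at 0.2 µg of 102S. The 3 highest values were replicates 1 and 2 of 0.2 µg of 102S and replicate 1 of 0.2 µg of MCC, and replicate 3 was the lowest array in 4 of 4 groups. The difference was 0.15 (interval −0.57 to 0.87) at 2 µg and −0.46 (interval −1.18 to 0.26) at 0.2 µg, and neither passed the test. Myc's spread within groups, an SD of 0.48 log2, was larger than that of 94.2% of tested probe sets, while that of Egr2 (0.11) was larger than that of 9.39%.

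Whether Myc passed changed with the arrays and covariates used. Without 102S 0.2 µg replicate 3, Myc was lower with MCC at 0.2 µg (−0.88, adjusted p = 0.0368), and lower with 2 µg than with 0.2 µg of 102S (−1.15, adjusted p = 0.0348), against −0.46 and −0.73 (adjusted p = 0.405 and 0.377) with all 12 arrays. That array and MCC 0.2 µg replicate 3 had the highest β-actin differences, 2.35 and 2.33 log2. With both left out, an alternative chosen after seeing the data, the 0.2 µg peptide difference was −0.74 (adjusted p = 0.115). The dose difference of 102S was then −1.15 (adjusted p = 0.0346). It could not differ from the value above, because the MCC array is not part of that comparison. With the β-actin difference as a covariate, the dose difference was −0.83 for MCC (adjusted p = 0.00943) and −0.80 for 102S (adjusted p = 0.000958). The value for MCC extrapolates, because the β-actin differences of the 2 doses of MCC did not overlap. The part of RNA quality in the level of Myc was otherwise not tested.

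**Figure D3:**
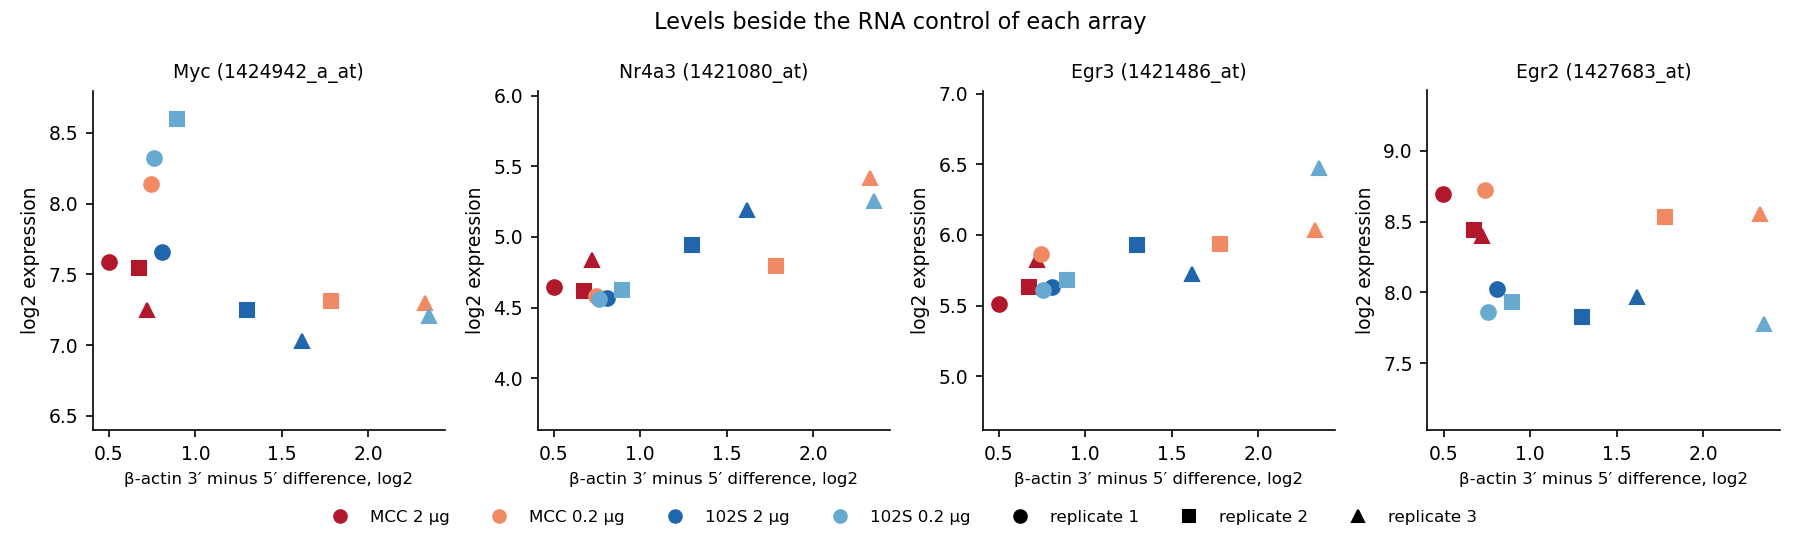
Log2 expression of 4 genes (vertical axes) against the β-actin 3′ minus 5′ difference on the same array (horizontal axes, log2). Colours are groups and shapes are replicate numbers. The 4 arrays with differences between 1.62 and 2.35 carry Myc values between 7.03 and 7.31, and the 6 Egr2 values of MCC arrays lie above the 6 of 102S arrays.

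Neither dose comparison called any of the 6 genes. For 2 µg against 0.2 µg of MCC, 0 of 6 passed in limma and 0 had an unadjusted p under 0.05, where 1.76% of all probe sets passed (0.708% higher and 1.05% lower). For 102S 0 of 6 passed and 2 had an unadjusted p under 0.05 (Nr4a1 and Myc), where 3.16% of all probe sets passed (2.66% higher and 0.509% lower). For the interaction 0 of 6 passed and 1 had an unadjusted p under 0.05 (Nr4a1), where 0.767% passed. In the widest contrast, 2 µg of MCC against 0.2 µg of 102S, 2 of 6 passed (Nr4a1 at 1.04 ± 0.20, adjusted p = 0.00219, and Egr2 at 0.66 ± 0.12, adjusted p = 0.00155), where 25.4% of all probe sets passed. On its second probe set, Egr2 differed by 0.38 ± 0.14 there and did not pass (adjusted p = 0.0618). These comparisons share groups, so their results are not independent.

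Of 17 other immediate early genes, 11 were tested, while Fosb, Fosl1, Jun, Egr4, Ier3 and Atf3 lay below the filter. Beside the counts of this list and those below, 10.3% of all tested probe sets passed at 2 µg and 14.3% at 0.2 µg. At 2 µg 0 were higher and 1 lower with MCC, and at 0.2 µg 1 was higher and 1 lower, with list medians of 0.09 and −0.16 beside −0.04 and −0.04 over all probe sets. Jund, an AP-1 subunit, was higher at 0.2 µg (0.40 ± 0.08), the RNA-binding repressor gene Zfp36 was lower at 0.2 µg (−1.30 ± 0.23), and Ier5 was lower at 2 µg (−0.59 ± 0.13). The AP-1 genes Fos (0.09 ± 0.37 at 2 µg and 0.44 ± 0.37 at 0.2 µg), Fosl2 (0.17 and −0.16) and Junb (0.21 and −0.20) did not pass the test.

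Of 15 EGR corepressors and genes linked to EGR2 and EGR3, 12 were tested. At 2 µg 6 were higher and 2 lower with MCC, and at 0.2 µg 4 were higher and 4 lower, with medians of 0.24 and 0.22. Of all tested probe sets, 4.04% were higher and 6.23% lower at 2 µg, and 7.85% higher and 6.45% lower at 0.2 µg. Nab1, a corepressor of EGR factors, was lower at both doses (−0.65 ± 0.10 and −0.94 ± 0.10), and its relative Nab2 did not pass (−0.11 and 0.31). The death ligand gene Fasl was lower (−1.33 ± 0.25 and −2.71 ± 0.25). Its means were 4.45 and 3.30 at 2 µg and 0.2 µg of MCC, below the filter of 4.48. At 2 µg and 0.2 µg of 102S they were 5.78 and 6.01, so Fasl passed the filter only through the 102S groups. Dgka, which removes diacylglycerol, was lower at 0.2 µg (−0.94 ± 0.14). Tnfrsf9, encoding the costimulator 4-1BB, was higher (0.74 ± 0.20 and 2.35 ± 0.20), as was the co-receptor gene Nrp1 (3.22 ± 0.22 and 1.80 ± 0.22). Genes of this list moved in both directions.

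Of 10 genes linked to NR4A receptors, 6 were tested, with 3 higher at 2 µg, and 3 higher and 1 lower at 0.2 µg, and medians of 0.63 and 0.68. Pdcd1, the gene of the inhibitory receptor PD-1, was higher (2.01 ± 0.14 and 2.43 ± 0.14), as were Irf4 (1.22 ± 0.19 and 2.28 ± 0.19), a transcription factor scaled to receptor signal, and the pro-apoptotic gene Bcl2l11 (0.68 ± 0.14 and 0.88 ± 0.14). Runx1 was lower at 0.2 µg (−0.54 ± 0.17), and the factor genes Tox (0.58 ± 0.30 and 0.48 ± 0.30) and Batf (0.27 and 0.43) did not pass.

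Of 13 MYC partners and antagonists, 12 were tested, with 1 higher and 2 lower at 2 µg and 1 higher and 1 lower at 0.2 µg. Mxd4, an antagonist that competes with Myc for Max, was higher (1.09 ± 0.18 and 1.76 ± 0.18), and Mnt, another, was lower (−0.66 ± 0.11 and −0.59 ± 0.11). Mxi1 was lower at 2 µg (−0.84 ± 0.24), and Max, the partner of Myc, did not pass (0.21 and −0.27), nor did Mxd1 (0.02 and 0.03) or Mxd3 (0.53 and 0.40).

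All 24 genes widely reported as MYC targets were tested, with 1 higher and 2 lower at 2 µg and 4 higher and 0 lower at 0.2 µg, and medians of 0.11 and 0.01. Between doses, 0 were higher and 4 lower with 2 µg than 0.2 µg of MCC (median −0.27, beside −0.01 over all probe sets), and 0 were higher and 2 lower for 102S (median −0.20). Of all tested probe sets, 1.05% were lower for the dose of MCC and 0.509% for the dose of 102S. The nucleolar genes Ncl (0.24 and 0.20), Nolc1 (−0.14 and −0.48), Fbl (0.25 and −0.03) and Npm1 (0.27 and 0.24) did not pass for the peptide. At 0.2 µg the transferrin receptor gene Tfrc (0.94 ± 0.11) and the cell cycle kinase gene Cdk4 (0.75 ± 0.14) were higher with MCC, and Tfrc differed between the doses in its peptide effect (interaction −0.97).

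In the calcium and NFAT pathway, 11 of 12 genes were tested, with 1 higher and 2 lower at 2 µg and 1 higher and 4 lower at 0.2 µg. Nfatc1 was higher (0.89 ± 0.13 and 0.67 ± 0.13), while Nfatc3 (−0.55 ± 0.10 and −0.50 ± 0.10) and the calcineurin subunit gene Ppp3ca (−1.34 ± 0.16 and −0.69 ± 0.16) were lower. The calcium sensor gene Stim1 (−0.44 ± 0.13) and Mef2d (−0.71 ± 0.18) were lower at 0.2 µg, and Nfatc2 did not pass (0.27 and 0.11). Of 12 ERK and SRF pathway genes 7 had a probe set and were tested, and 0 passed in limma at either dose, while 2 at 2 µg and 1 at 0.2 µg had an unadjusted p under 0.05. Among them were Map2k1 (0.07 and −0.20), Map2k2 (−0.11 and −0.08), Nras (0.25 and −0.50), Rasgrp1 (−0.45 and −0.13), Sos1 (−0.73 and −0.58) and Elk4 (−0.12 and −0.39).

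Of 8 surface genes of recent receptor signal, 6 were tested, of which 4 were higher with MCC at 2 µg and 6 at 0.2 µg, with medians of 0.89 and 2.23. Tnfrsf4 (1.73 ± 0.19 and 2.82 ± 0.19), Ctla4 (1.32 ± 0.32 and 3.45 ± 0.32), Icos (0.45 ± 0.12 and 1.65 ± 0.12) and Cd83 (1.34 ± 0.20 and 4.39 ± 0.20) were higher at both doses. Cd5, a negative regulator of receptor signal (0.23 ± 0.14 and 1.11 ± 0.14), and Il2ra (0.30 ± 0.21 and 0.74 ± 0.21) were higher at 0.2 µg. Several genes of these lists, Nrp1, Pdcd1, Ctla4 and Cd83 among them, were already known to differ in these data, so the lists are no independent support. Of 7 heat shock genes of handling stress, 5 were tested, and Dnajb1 was lower with MCC at both doses (−0.73 ± 0.14 and −0.46 ± 0.14). The others were Hsph1 (−0.66 and −0.68), Hsp90aa1 (0.19 and −0.07), Hspa8 (−0.05 and 0.02) and Hspb1 (0.50 and 0.34), which did not pass.

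**Figure D4:**
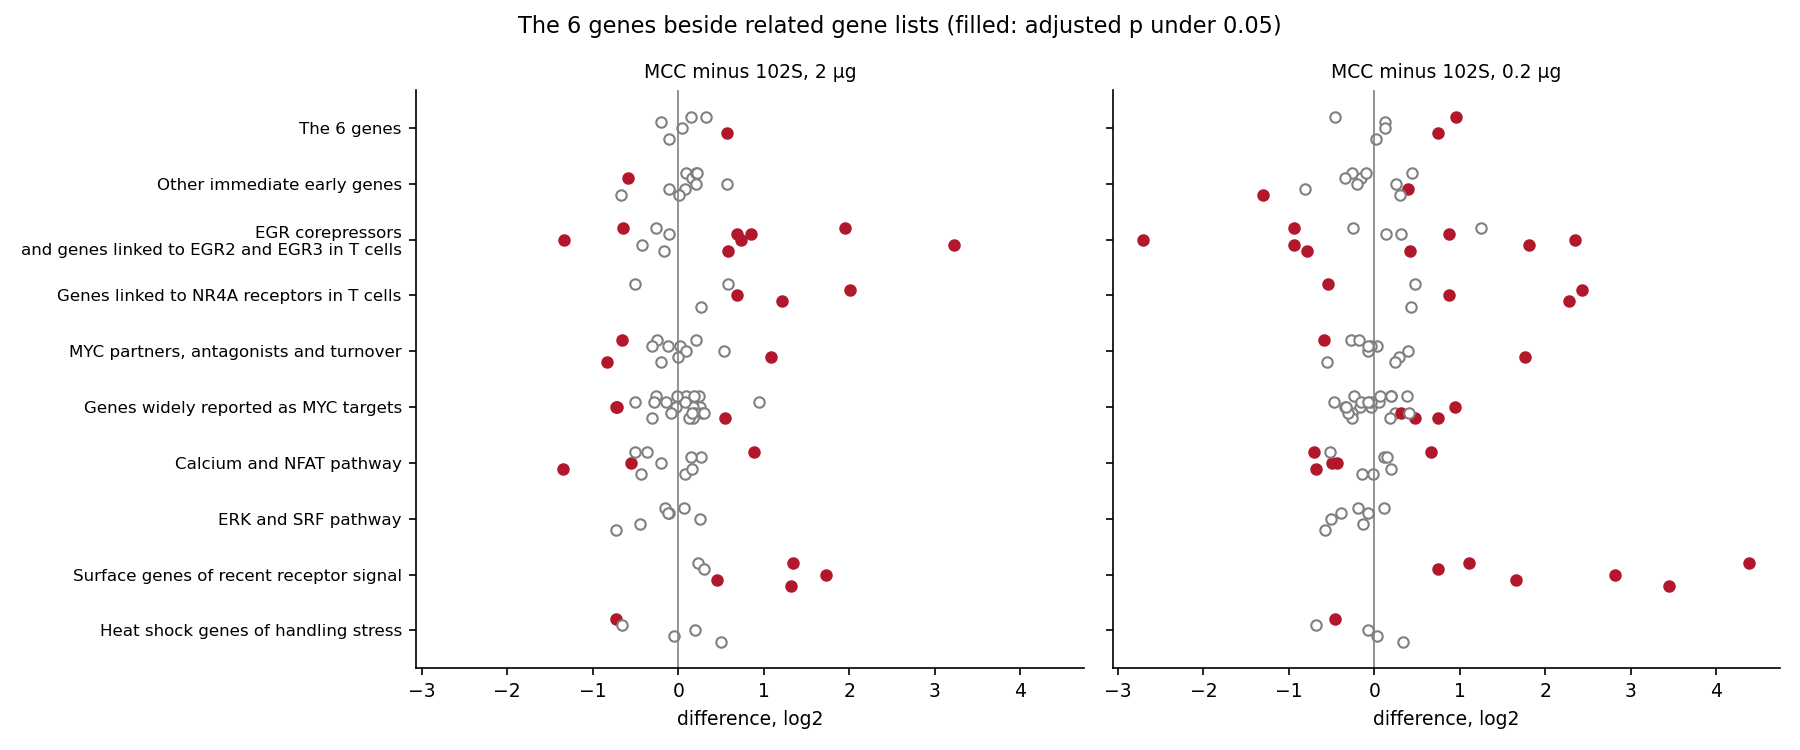
Log2 MCC minus 102S differences (horizontal axes) at 2 µg and 0.2 µg for the 6 genes and for related gene lists (rows). Each point is a gene, and filled points passed the test. All 6 tested surface genes lie above 0 at both doses and reach 4.39 at 0.2 µg, while the 6 immediate early genes lie between −0.46 and 0.95 there.

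The genes whose levels over the 12 arrays were most like each member were taken by Pearson's r among 7944 genes. These are descriptions without a test, and they share the groups and the RNA quality of the arrays. Nr4a1 was most like Smc2 (r = 0.948), Zfp36l1, Ncapg2, Ctla4 and Vav3, and Egr2 most like Smarcc1 (r = 0.950), Pla2g4f, Eef1b2, C1qtnf12 and Rnf149. Egr1 was most like Pigs (0.954), Kif3b, Haus4, Ptdss2 and Hspa14, and Myc most like Rrp12 (0.935), Eif3a, Nudc, Eprs and Rrp8. Nr4a3 was most like Gtf3c1 (0.965), Tenm2, Zdhhc6, Cav1 and Gata6, and Egr3 most like Pou3f1 (0.951), Sp5, Gm30058, Pitx1 and Mt3. Nr4a3 was highest on replicate 3 in 4 of 4 groups and Egr3 lowest on replicate 1 in 4 of 4, the same arrays that were highest and lowest in β-actin difference. Egr1 was highest on replicate 1 and Myc lowest on replicate 3, each in 4 of 4 groups. Replicate 1 was also the other source of cells, so source and RNA control cannot be told apart for it.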

How the data were processed

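RNA of sorted T cells was measured on 12 Affymetrix arrays in 4 groups of 3. The deposited table holds 1 log2 value per probe set and array. The submitters' processing notes name GCOS 1.4. The authors' background correction, probe summary and scaling are not given in the sources used here. Array medians differed by 0.0893 log2, and no further normalization was applied to the deposited log2 values. The number of arrays limits the precision.

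Gene names came from the platform annotation, in which 20393 probe sets had 1 symbol, 691 several and 1606 none. The 64 control probe sets and probe sets with a mean over the 12 arrays below the 40th percentile (log2 4.48) were removed, and 13556 were tested. The probe set of highest mean stood for a gene. limma 3.58.1 (R 4.3.3; lmFit, then eBayes with a trend on intensity) fitted 4 group means, and tests were 2-sided, with Benjamini-Hochberg adjustment over all tested probe sets and a threshold of 0.05. The fit was tested on simulated data.

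The members, the gene lists and the tests were chosen with earlier results of these data known. All probe sets of the members are described. Of each list, the first 4 tested genes in the order written and the 2 others of smallest adjusted p at 0.2 µg are named, and for each member the 5 genes of highest correlation. The test of unequal change within a family was first run on 3 pairs and then extended to all 4 pairs of the families, and p-values were adjusted over the 4. Alternatives changed the normalization, filter, trend, arrays, covariates and probe set. Figures were drawn with matplotlib 3.10.9 in Python 3.11.15.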

Additional observations from a re-analysis of the deposited data

How the results depend on the processing

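The 42 differences of the 6 genes in 7 comparisons were refitted under up to 22 settings, which gave 883 values. Many settings could alter the p-value but not the difference. These were the filter, the trend, the compared arrays only, the replicate block, and leaving out an array of a group outside the comparison. Direction was thus fixed in advance for many of the values. Of the 130 values of the 6 differences that passed the test, 0 changed direction and 8 no longer passed. Of the 753 values of the 36 others, 14 passed and 57 changed sign, the largest of these being 0.29 in size with adjusted p-values of 0.167 or more. The cause of a change was not tested unless stated.

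At 2 µg the count of genes that passed for MCC against 102S was 0 in place of 1 with replicates 2 and 3 only, where fewer arrays were fitted (Egr2 0.53, adjusted p = 0.0983, with 5.69% of all probe sets called). At 0.2 µg it was 1 in place of 2 when only the compared arrays were fitted (Nr4a1, adjusted p = 0.0623, with 7.90% of all called), and leaving out 1 array gave 2 to 3, with Myc in addition without 102S 0.2 µg replicate 3 (18.2% of all called). For the dose of MCC it was 1 in place of 0 with the β-actin covariate (542 of 13556 probe sets called, against 239 without it). For the dose of 102S it was 1 in place of 0 with quantile normalization (Nr4a1, adjusted p = 0.0427, 3.71% of all called), 2 with the β-actin covariate (10.5% of all called, against 3.16% without it) and 1 with the 2 arrays of highest β-actin difference left out (2.82%), and leaving out 1 array gave 0 to 1. For 0.2 µg of MCC against 2 µg of 102S it was 0 in place of 1 with the compared arrays only (adjusted p = 0.0528, 1.11% of all called) or replicates 2 and 3 only (0.101, 0.959% of all called), and 2 with the β-actin covariate (Myc 0.54, adjusted p = 0.0234, 8.68% of all called), and leaving out 1 array gave 0 to 1. For the interaction it was 1 in place of 0 with the β-actin covariate (Nr4a1 −0.94, adjusted p = 0.0103, 2.10% of all called). For 2 µg of MCC against 0.2 µg of 102S it was 2, and 3 in the 3 settings in which Myc passed in addition: with the β-actin covariate (−1.09, adjusted p = 2.9e-05, 40.5% of all called against 25.4% without it), without 102S 0.2 µg replicate 3 (−1.005, adjusted p = 0.0150, 23.9%), and with the 2 arrays of highest β-actin difference left out (−1.005, adjusted p = 0.0140, 24.2%).

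The main fit did not pair arrays by replicate number, although arrays of the same number shared part of their deviations. Of 18 pairs with the same number, 16 had deviations correlated above 0.1, with a median of 0.47 and the lowest at −0.29. Of 12 arrays, 9 correlated best with their own number. The 6 pairs of number 1 lay between 0.56 and 0.82 and the 6 of number 3 between 0.22 and 0.66, while 4 of the 6 of number 2 were above 0.1, and pairs of different numbers had a median of −0.34. The sex-linked genes and the order of the β-actin difference also followed the number in 4 of 4 groups. With the number as a replicate block, Nr4a1 passed for the dose of 102S (0.72, adjusted p = 0.0288), so 1 gene passed in place of 0, and the other 6 counts were the same as without the block. Of all probe sets, the block called 6.11% for the dose of 102S and 11.5% for the dose of MCC, 18.3% and 25.8% for MCC against 102S at 2 µg and 0.2 µg, 8.46% for 0.2 µg of MCC against 2 µg of 102S, 35.5% for 2 µg of MCC against 0.2 µg of 102S and 2.37% for the interaction, against 3.16%, 1.76%, 10.3%, 14.3%, 2.48%, 25.4% and 0.767% without it.

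The sign changes were these. With the β-actin covariate, MCC against 102S at 2 µg gave Nr4a3 0.097, Egr1 −0.10, Egr3 0.099 and Myc −0.29, and at 0.2 µg Nr4a3 −0.019 and Egr3 −0.069. The dose of MCC gave Nr4a1 −0.26, Nr4a3 0.25, Egr1 −0.18 and Egr3 0.035. Across peptides and doses, 0.2 µg of MCC against 2 µg of 102S gave Nr4a3 −0.15 and Egr1 0.081, 2 µg of MCC against 0.2 µg of 102S gave Nr4a3 0.23, and the interaction gave Nr4a3 0.12, Egr3 0.17 and Myc −0.025. With median centring, Egr3 at 0.2 µg was −0.023 and Nr4a3 in 0.2 µg of MCC against 2 µg of 102S was −0.0046. With quantile normalization the last comparison gave Nr4a3 −0.029 and Egr1 0.015. With replicates 2 and 3 only, Egr3 at 0.2 µg was −0.094, Myc for the dose of MCC 0.091 and Egr3 for the interaction 0.0010. On its other probe set Egr2 was −0.047 for the dose of 102S. With the 2 arrays of highest β-actin difference left out, chosen after seeing the data, Nr4a3 was 0.0085 for the dose of MCC, Egr1 −0.0094 and Egr3 0.11 for the dose of 102S, Nr4a3 −0.21 and Egr1 0.034 for 0.2 µg of MCC against 2 µg of 102S, Nr4a3 0.11 and Egr3 0.010 for 2 µg of MCC against 0.2 µg of 102S, and Egr1 0.017 for the interaction.

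Leaving out 1 array gave, for MCC against 102S at 0.2 µg, Nr4a3 −0.12 to 0.34, Egr1 −0.016 to 0.20 and Egr3 −0.13 to 0.30. For the dose of MCC it gave Nr4a3 −0.41 to 0.0085, Egr1 −0.0084 to 0.15 and Myc −0.27 to 0.15, and for the dose of 102S Nr4a3 −0.057 to 0.31, Egr1 −0.0094 to 0.21 and Egr3 −0.32 to 0.11. For 0.2 µg of MCC against 2 µg of 102S it gave Nr4a3 −0.21 to 0.21, Egr1 −0.10 to 0.051 and Myc −0.0061 to 0.44. For 2 µg of MCC against 0.2 µg of 102S it gave Nr4a3 −0.24 to 0.11 and Egr3 −0.42 to 0.010, and for the interaction Egr1 −0.16 to 0.058 and Egr3 −0.40 to 0.031.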
